A study of Mus musculus with 8 samples.

Results

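Haematopoietic stem cells (HSC) that lacked E47 were compared after 2 rounds of transfer, with donor-derived HSC taken from secondary recipient mice set against donor-derived HSC taken from primary recipient mice. The comparison used 4 of the 8 arrays of the series, chosen by their sample titles: 2 arrays of E47 knockout (KO) HSC from primary recipients and 2 arrays of KO HSC from secondary recipients. The other 4 arrays held wild-type (WT) donor HSC, 2 from primary and 2 from secondary recipients, and were used for the shared estimate of spread and as the nearest comparison. All 4 groups were donor-derived mouse HSC sorted by flow cytometry from transplanted mice, then lysed, and their cDNA was amplified by PCR across all transcripts before Cy3 labelling. The knockout allele, the strains, the ages of the mice, the time between transfers, the sort gate and the number of cells per array were not stated in the labels. The labels number the arrays of a group 1 and 2 without saying whether they came from separate mice, so the tests rest on a spread between arrays that could be technical.

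E47 is one of the proteins encoded by Tcf3, a basic helix-loop-helix transcription factor that binds DNA motifs called E-boxes and is best known for starting the B-cell programme. In stem and early progenitor cells, E proteins and their Id antagonists affect lymphoid priming, the cell cycle and the maintenance of the stem cell pool. Serial transplantation makes a small number of stem cells rebuild the blood of a new host, and self-renewal is commonly judged by how well cells from a first recipient do so again in a second.

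The KO primary arrays differed from each other more than the KO secondary arrays did. KO primary replicate 2 was dim: 35.4% of its spots were well above background, against 72.2% on KO primary replicate 1 and 90.7% and 74.5% on KO secondary replicates 1 and 2, and the 75th percentile of its signal was 19.6 against 357, 663 and 431. Levels below are log2 signals minus the 75th percentile of the array, so 0 marks the 75th percentile; on KO primary replicate 2, no level under -1.20 was well above background. The median absolute difference between the 2 replicates of a gene was 1.71 log2 units for KO primary and 1.09 for KO secondary. Both KO primary arrays lay on 1 slide and both KO secondary arrays on another, with different scan dates in the file headers. Recipient, slide and scan date therefore cannot be told apart in KO. The 4 WT arrays shared a single slide and scan date.

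No gene passed the test between KO secondary and KO primary HSC once all genes were taken into account. Of 22969 genes, 0 (0.0%) had an adjusted p under 0.05 in limma, and the lowest adjusted p was 0.692. At an unadjusted p under 0.05, 752 genes (3.27%) were higher and 634 (2.76%) lower in secondary recipients. By order alone, on 2913 genes (12.7%) both KO secondary arrays lay above both KO primary arrays, and on 6532 (28.4%) both lay below. The lowest level of any gene was -7.32 and -3.53 on the KO primary and -8.45 and -8.12 on the KO secondary arrays. A gene at this floor on all 4 arrays thus counts as below through the scaling alone. The same limit applies to each count by order given later, in KO and in WT. The median gene was 0.53 log2 units lower in secondary recipients, and the differences given here are relative to that median gene, while the p-values refer to the difference before this shift. With 2 arrays against 2, an exact two-sided permutation test of 1 gene cannot give a p under 0.333. None of the genes or groups described below therefore passed the test, and their values stand as descriptions of these 4 arrays.

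The higher and the lower genes differed in how well they were measured. Of the 752 genes that lay higher at an unadjusted p under 0.05, all 752 were well above background on both KO secondary arrays, but 256 were so on neither KO primary array and 419 on 1 of them, which left 77 measured on all 4. Of the 634 lower genes, 498 were well above background on both KO primary arrays and 548 on both KO secondary arrays. The part of array brightness in these counts was not tested.

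Over all 4 KO arrays, the group that stood furthest from the median gene was the neutrophil granule and calgranulin genes. Without KO primary replicate 2 this rank did not hold. These genes encode proteins that maturing neutrophils store in granules or hold in the cytoplasm. Their median difference was -3.13 log2 units over 24 genes tested of 27 listed. At an unadjusted p under 0.05, 8 of the 24 (33.3%, against 2.76% of all genes) lay lower in KO secondary recipients. On the higher side lay 1 (4.2%, against 3.27%). On 15 of the 24 both secondary arrays were below both primary arrays, where all genes gave 28.4%. Without KO primary replicate 1 or 2 the median of the list was -4.01 or -0.84. Without KO secondary replicate 1 or 2 it was -2.73 or -3.12. The lower count fell without KO primary replicate 2 or either KO secondary array and rose without KO primary replicate 1. Over all genes the count of lower genes also moved with the array left out. These genes were listed with earlier results of these data known, so the count is not independent evidence of a direction. The 300 bases around the start sites of the 4 genes with the lowest p are shown because these genes differed most; they are RefSeq promoters on GRCm38.p6, written 5′ to 3′ on the gene's strand, with capitals marking matches to TTNNGNAA, letters bound by the C/EBP factors that drive granule genes. S100a8 lies at chr3:90668821-90669120 on the plus strand, S100a9 at chr3:90695672-90695971 on the minus strand, Retnlg at chr16:48872358-48872657 on the plus strand and Ngp at chr9:110419558-110419857 on the plus strand.
S100a8: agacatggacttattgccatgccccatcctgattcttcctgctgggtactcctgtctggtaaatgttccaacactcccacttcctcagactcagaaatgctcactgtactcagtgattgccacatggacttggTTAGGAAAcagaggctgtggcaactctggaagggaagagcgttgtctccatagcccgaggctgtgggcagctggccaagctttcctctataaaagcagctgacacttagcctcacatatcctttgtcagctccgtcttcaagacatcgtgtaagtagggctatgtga
S100a9: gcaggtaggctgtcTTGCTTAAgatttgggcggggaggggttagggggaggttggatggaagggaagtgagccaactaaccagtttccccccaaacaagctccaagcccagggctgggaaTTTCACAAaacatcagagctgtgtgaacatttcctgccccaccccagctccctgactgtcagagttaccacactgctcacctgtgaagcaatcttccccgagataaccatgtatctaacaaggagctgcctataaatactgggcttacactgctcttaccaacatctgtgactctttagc
Retnlg: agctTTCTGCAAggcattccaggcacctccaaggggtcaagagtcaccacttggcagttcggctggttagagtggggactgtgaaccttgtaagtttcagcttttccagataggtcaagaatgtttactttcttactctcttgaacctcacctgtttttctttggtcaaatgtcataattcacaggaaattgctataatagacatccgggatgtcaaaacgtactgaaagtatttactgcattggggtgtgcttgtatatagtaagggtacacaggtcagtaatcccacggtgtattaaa
Ngp: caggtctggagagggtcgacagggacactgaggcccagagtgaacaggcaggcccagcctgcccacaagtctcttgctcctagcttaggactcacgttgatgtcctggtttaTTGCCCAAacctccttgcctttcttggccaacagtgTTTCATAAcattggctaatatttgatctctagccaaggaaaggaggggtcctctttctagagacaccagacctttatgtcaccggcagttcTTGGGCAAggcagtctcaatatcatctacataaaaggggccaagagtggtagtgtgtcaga
Searched on both strands, these windows held 1 match in S100a8, 2 in S100a9, 1 in Retnlg and 3 in Ngp, while 40.7% of 32851 RefSeq promoters of this length held at least 1. The E-box CAGGTG, read on both strands, occurred once each in S100a9 and Retnlg and in 20.2% of all promoters, and the palindromic E-box CAGCTG occurred at 2 places in S100a8 and in 16.3% of all promoters. A match describes the letters and does not show a binding site.

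S100a8 encodes a calcium-binding subunit of calprotectin, an abundant cytoplasmic protein of neutrophils. Its level was 4.96 and 11.64 on KO primary replicates 1 and 2, and -3.04 and -7.71 on KO secondary replicates 1 and 2, where replicate 2 was not well above background. Both primary arrays stood far above both secondary arrays, and the difference was -13.15 (SE 2.75, adjusted p = 0.692 in limma). Its partner S100a9 stood at 2.62 and 11.75 on the primary and at -4.21 and -3.37 on the secondary arrays, a difference of -10.45 (SE 2.89, adjusted p = 0.697). Retnlg, a secreted resistin-like protein of neutrophils, was at 5.29 and 10.92 in primary and at -4.76 and 0.07 in secondary recipients. Ngp, a protein of the secondary granules, was at 2.73 and 11.21 in primary and at -2.26 and -2.56 in secondary recipients. In all 4 genes the groups did not overlap, but these genes were picked by low p in this same comparison. Over all genes, both KO secondary arrays lay below both KO primary arrays on 28.4%. The dim KO primary replicate 2 held the highest value of each of the 4. Without that array the differences were -10.10 for S100a8, -6.17 for S100a9, -7.39 for Retnlg and -4.90 for Ngp. Ifitm6, an interferon-inducible membrane protein of myeloid cells, went the other way, at -3.38 and -3.37 in primary and -0.78 and 2.02 in secondary recipients.

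The median of the neutrophil list, like its leading genes, leaned on the dim array. Without KO primary replicate 2 the median of the list was -0.84 in place of -3.13. The summed linear signal of the 24 genes, as a multiple of the 75th percentile, was 168 and 15380 on the KO primary arrays and 14.0 and 49.3 on the KO secondary arrays. Not every gene of the list was highest on that array. Lcn2, a siderophore-binding granule protein named here after its values were seen, was at 3.24 on KO primary replicate 1 but at -3.29 on replicate 2. It was at -8.21 and -7.48 on the secondary arrays. Only KO primary replicate 1 was well above background for Lcn2, so the order of the other KO arrays is unknown. The following granule genes are likewise named outside the rule. Camp, the antimicrobial cathelicidin, was at 0.84 and 9.40 in primary and -2.47 and -5.64 in secondary recipients, and Mmp8, neutrophil collagenase, at 5.51 and -0.09 against -1.42 and -1.87. Ltf, lactoferrin, was at -1.87 and 8.0 against -2.50 and -2.97, so that KO primary replicate 1 lay near the secondary arrays. For Lyz2, the lysozyme of myeloid cells, the groups overlapped, at 0.54 and 6.78 against 1.16 and 1.56. In sorted cells measured in bulk, fewer cells of a type and less RNA per cell cannot be told apart. WT arrays, all on 1 slide, gave a median difference of -1.72 for the same list. In WT secondary recipients S100a8 was well above background on neither array, at -8.48 and -8.03 against 5.07 and 10.92 in primary recipients.

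Myeloid progenitor genes, which mark the step before mature neutrophils and monocytes, had a median difference of -0.67 over 22 genes tested. Of the 22, 8 lay above the median gene. At an unadjusted p under 0.05, 0 lay higher and 1 lower, against 3.27% and 2.76% of all genes. That gene was Mpo, the azurophil-granule peroxidase, at 6.21 and 11.60 in primary and 2.87 and 3.29 in secondary recipients, a difference of -5.30 that was -2.89 without KO primary replicate 2. Elane, which encodes neutrophil elastase, stood at 3.76 and 9.79 in primary and at 1.26 and 3.77 in secondary recipients, so that the groups overlapped narrowly. Prtn3, another azurophil protease, named after its values were seen, was at 0.85 and -0.63 against 0.62 and 2.62, a difference of 2.03. The summed signals of this list were 163 and 7074 on the primary arrays and 60.9 and 84.6 on the secondary arrays.

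**Figure D1:**
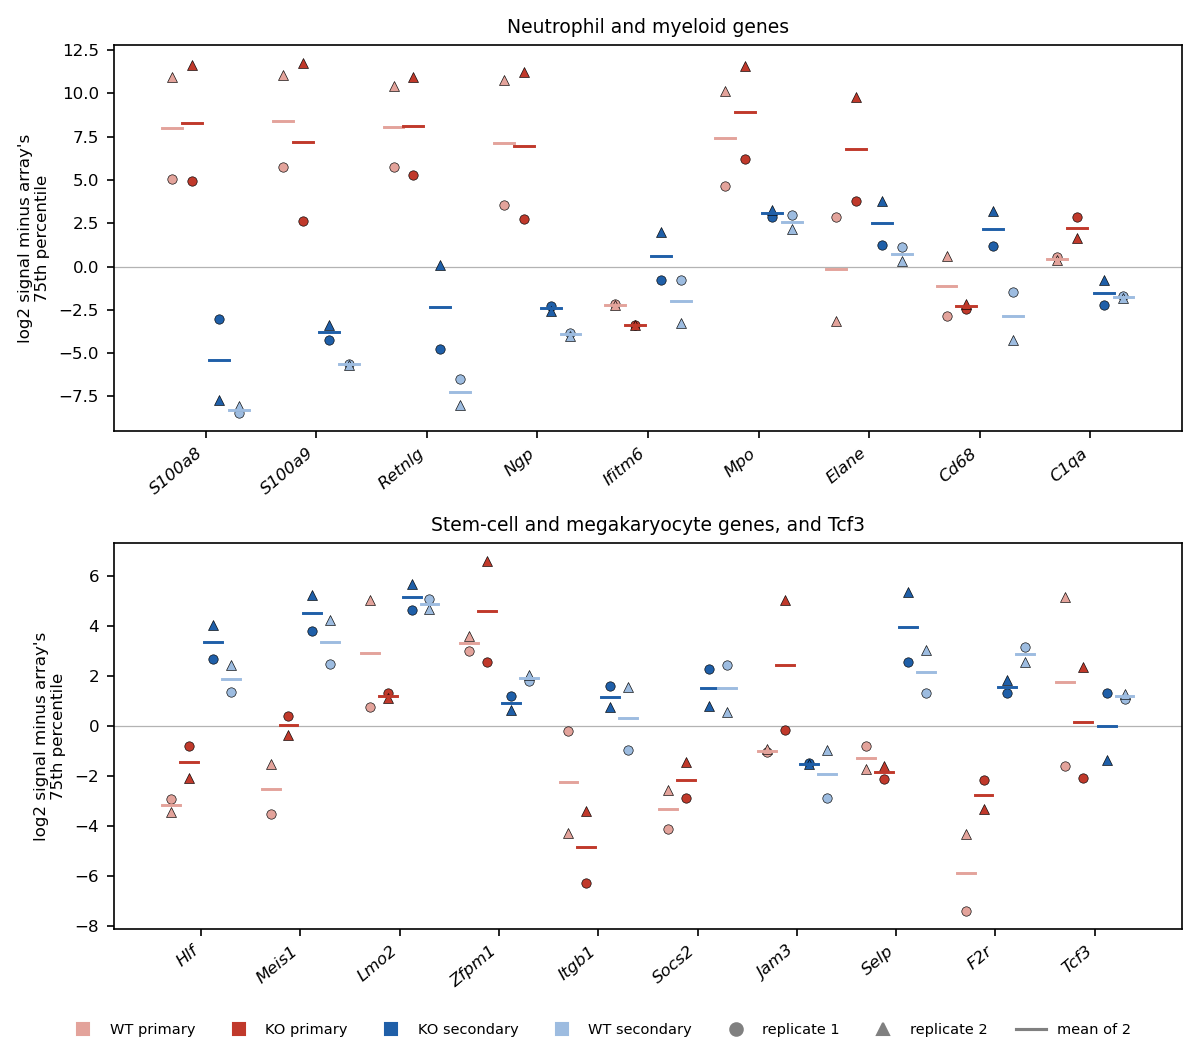
Levels of neutrophil and myeloid genes (top) and of stem-cell and megakaryocyte genes with Tcf3 (bottom) on each of the 8 arrays; the y axis is the log2 signal minus the 75th percentile of the array, circles and triangles are replicates 1 and 2, and lines are means of 2. S100a8 stands at 4.96 and 11.64 on the KO primary arrays and at -3.04 and -7.71 on the KO secondary arrays, while Hlf stands at -0.80 and -2.09 on the primary and at 2.68 and 4.02 on the secondary arrays.

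Genes of the stem cell programme lay on both sides of the median gene, with the transcription factors higher more often than lower. Of 25 HSC transcription factors tested, 17 lay above the median gene, the median difference was 0.84, and 3 were higher and 1 lower at an unadjusted p under 0.05, against 3.27% and 2.76% of all genes. That median was 0.48 without KO primary replicate 2 and 0.41 without KO secondary replicate 2. Hlf, a PAR bZIP factor typical of the most primitive HSC, was at -0.80 and -2.09 on the KO primary arrays and at 2.68 and 4.02 on the KO secondary arrays. The groups did not overlap, and the difference was 5.32 (SE 1.06, adjusted p = 0.692 in limma); KO primary replicate 2 was under its background limit. Meis1, a homeobox cofactor needed for HSC maintenance, was well above background on all 4 KO arrays, at 0.41 and -0.38 in primary and 3.79 and 5.23 in secondary recipients, with a difference of 5.02 (SE 1.21, adjusted p = 0.697). Lmo2, a bridging subunit of the Tal1 and Gata complex, was at 1.30 and 1.1 in primary and 4.64 and 5.68 in secondary recipients. Zfpm1, the Gata1 cofactor FOG1, stood lower, at 2.54 and 6.59 in primary and 1.18 and 0.64 in secondary recipients; its difference of -3.13 was -1.39 without KO primary replicate 2. In WT HSC the difference was 6.06 for Hlf, 6.88 for Meis1 and 2.96 for Lmo2, on the same side as in KO.

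Surface molecules used to define HSC overlapped between the recipients. These markers are named as the defining ones of the labelled cell type, outside the naming rule. Kit, the stem cell factor receptor, stood at 0.57 and -0.36 in primary and 1.43 and -2.85 in secondary recipients, and Ly6a, which encodes Sca-1, at 1.33 and 2.19 against 2.29 and 0.21. Slamf1, which encodes CD150, was at 1.70 and -0.80 against 1.27 and -4.06, and Procr, the protein C receptor EPCR, at 0.12 and -3.44 against 2.93 and -4.04. All 4 were well above background on both KO secondary arrays, and Procr on only 1 of the KO primary arrays, so its order against KO primary replicate 2 is unknown. The groups overlapped in Kit, Ly6a and Slamf1, with KO secondary replicate 2 the lowest array. Over the 36 surface and niche-signalling genes tested the median difference was 0.19, and -0.05 without KO primary replicate 2.

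Among those 36 genes, 2 (5.6%) lay higher and 1 (2.8%) lower at an unadjusted p under 0.05, against 3.27% and 2.76% of all genes. Itgb1, the integrin beta-1 chain that anchors HSC to the niche, was well above background on neither KO primary array, at -6.29 and -3.38, and stood at 1.58 and 0.75 on the secondary arrays. That made it at least 19.2-fold higher in secondary recipients (adjusted p = 0.716 in limma); such a bound sets the mean of the bright group against, on each dim array, the higher of the gene's own level and the lowest level well above background. These bounds are given before the shift to the median gene and hold for the processed signal only: with normexp background correction the differences of the genes given a bound in KO ran from 1.41 log2 units for Cks1b to 5.65 for Snhg7. Socs2, an inhibitor of cytokine signalling, was at -2.86 and -1.43 in primary and 2.27 and 0.78 in secondary recipients. Jam3, an adhesion molecule of HSC, was at -0.15 and 5.03 against -1.50 and -1.54, a difference of -3.43 that was -1.12 without KO primary replicate 2.

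Tcf3, the gene that encodes E47, overlapped between the recipients. Its level was -2.09 and 2.37 on the KO primary arrays and 1.33 and -1.36 on the KO secondary arrays, a difference of 0.37 (SE 2.38, adjusted p = 0.988 in limma), and the sign changed with which array or probe was used. The sources do not say which exons the knockout removes, and Tcf3 also encodes E12, so this level does not check the genotype. Among 9 E-protein, Id and partner genes tested, Cbfa2t3, a corepressor that binds E proteins, lay higher at an unadjusted p under 0.05, at -2.17 and -0.75 in primary and 0.79 and 0.88 in secondary recipients. Tcf12, which encodes the E protein HEB, was at 0.64 and 0.38 against -0.47 and -1.04. That was a difference of -0.73 by its brightest probe, while its other probes ranged from -3.35 to 1.74. The median of the list was -0.07, and it was 0.50 without KO primary replicate 2.

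The 12 genes of lowest p among those higher in KO secondary recipients were picked from genes well above background on both KO secondary arrays. Of these 12, 5 were well above background on neither KO primary array and 7 on 1 of them. Of all 752 genes higher at an unadjusted limma p under 0.05, 256 were so on neither and 419 on 1, so this was not particular to the 12. Sae1, a subunit of the enzyme that activates SUMO, was at -4.91 and -3.17 in primary and 2.45 and 3.05 in secondary recipients, at least 55.9-fold higher. Hspa5, the endoplasmic reticulum chaperone BiP, was at -4.84 and -3.18 against 3.98 and 3.50, at least 108-fold higher. Snhg7, a small nucleolar RNA host gene, was at least 92.4-fold, Tomm5, a subunit of the mitochondrial import pore, at least 60.8-fold, and Mthfd1l, a mitochondrial folate enzyme, at least 58.6-fold higher. Each of these 5 had an adjusted p of 0.692 in limma. With normexp correction their differences were smaller than these bounds, at 4.59 log2 units for Sae1, 5.52 for Hspa5, 5.65 for Snhg7, 4.95 for Tomm5 and 4.82 for Mthfd1l. The other 7 were Ubap2l, Mcee, Rbis, Gmfg, Ssty1, Gbp2 and Mybbp1a, with differences from 5.93 for Mybbp1a to 7.57 for Gmfg. Ubap2l, a stress-granule protein, was at -4.35 and -3.37 against 1.90 and 2.49, though another of its probes gave -0.67, and Mybbp1a, a nucleolar Myb-binding protein, at -2.04 and -1.49 against 3.05 and 4.24. Ssty1 belongs to a multicopy Y-linked family, and its probe may read several copies.

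Of the 12 genes of lowest p among those lower in KO secondary recipients, all picked as well above background on both KO primary arrays, 9 were so on all 4 KO arrays. S100a8 had the largest difference of them. Guca2a, the gut peptide guanylin, was at 4.41 and 4.27 in primary and -0.70 and -1.42 in secondary recipients, a difference of -4.88 (SE 0.99, adjusted p = 0.692 in limma). Ephx2, the soluble epoxide hydrolase, was at 4.06 and 5.14 against 0.08 and -0.19, and Theg, a testis-expressed gene, at 3.88 and 4.72 against -0.90 and -0.45. Twist2, a basic helix-loop-helix repressor, was at 2.07 and 3.31 against -1.29 and -2.45. The groups did not overlap in any of these, but they were picked by low p in this same comparison. Over all genes, both KO secondary arrays lay below both KO primary arrays on 28.4%. Pebp4, at -1.38 and -0.04 against -6.21 and -7.87, was well above background on both primary and on neither secondary array. The remaining 6, Stk32c, Olfr781, Bean1, Col15a1, Ythdc2 and Kcnj15, had differences between -5.10 and -3.60. Col15a1, a basement-membrane collagen, was at 2.24 and 1.19 against -2.75 and -2.82, and Stk32c, a serine/threonine kinase, at 2.05 and 0.96 against -3.17 and -3.85. With normexp correction Pebp4 was at -1.86 in place of -5.81 and Ythdc2 at -2.68 in place of -5.10. Second probes gave 1.0 for Pebp4, 1.13 for Ythdc2 and 0.19 for Bean1. They were well above background on 3, 3 and 1 of the 8 arrays.

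Energy metabolism genes lay above the median gene more often than below it. Of 72 genes tested for the respiratory chain and ATP synthase, which make ATP in mitochondria, 53 lay above the median gene, with a median difference of 0.99. At an unadjusted p under 0.05, 10 (13.9%, against 3.27% of all genes) were higher and 0 lower, and on 23 genes both KO secondary arrays were above both primary arrays against 3 with both below, where all genes gave 12.7% and 28.4%. Over the 40 genes of the list well above background on all 8 arrays 1 was higher, against 1.1% of all genes so measured. The count of 10 fell with any 1 KO array left out. Cox7a2, a subunit of cytochrome c oxidase, was at -4.46 and -3.48 in primary and 2.19 and 3.0 in secondary recipients, a difference of 7.10 (SE 1.45, adjusted p = 0.692 in limma). Ndufb3, a subunit of complex I, was at -4.94 and -3.47 against 2.43 and 3.12. Both were well above background on only 1 KO primary array. Atp5g3, a gene for the membrane ring of ATP synthase, was on neither, and was at least 7.86-fold higher. Atp5d, the delta subunit, was at -0.30 and -1.17 against 1.52 and 3.27. With the same list, leaving out 1 KO array in turn gave medians from 0.73, without KO primary replicate 2, to 1.54, without KO secondary replicate 2, and WT gave 1.52.

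Genes of the tricarboxylic acid (TCA) cycle, which oxidises acetyl-CoA to feed that chain, had a median difference of 1.57 over 20 genes, with 4 higher (20.0%, against 3.27% of all genes) and 1 lower (5.0%, against 2.76%) at an unadjusted p under 0.05. The higher count fell without KO primary replicate 1 and without KO secondary replicate 1. It was 1 of the 10 genes well above background on all 8 arrays, against 1.1% of all genes so measured. Suclg1, a subunit of succinyl-CoA ligase, was well above background on all 4 KO arrays, at -0.92 and 1.26 in primary and 3.45 and 4.45 in secondary recipients. Pdhb, a subunit of pyruvate dehydrogenase, was at -0.21 and -1.53 against 2.93 and 5.33, and Suclg2, another subunit of the ligase, was at least 23.1-fold higher. Mdh2, mitochondrial malate dehydrogenase, lay the other way at 4.10 and 10.33 against 2.07 and 2.71; its difference of -4.29 was -1.47 without KO primary replicate 2. The list median stayed above the median gene without any 1 KO array, between 0.84 without KO secondary replicate 1 and 2.39 without KO secondary replicate 2, and was 0.61 over the genes well above background on all 8 arrays.

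Glycolysis genes had a median of 1.41 over 24 genes with 3 higher (12.5%, against 3.27% of all genes) and 0 lower. The median was 0.13 without KO primary replicate 2 and 0.07 over the genes well above background on all 8 arrays. Pfkl, the liver phosphofructokinase subunit, was at -3.52 and -3.04 in primary and 3.21 and 2.46 in secondary recipients. The pyruvate dehydrogenase kinases Pdk3 and Pdk1, which restrain the entry of pyruvate into mitochondria, were at -1.26 and -2.62 against 0.55 and 4.23, and at -3.74 and -3.46 against -0.35 and -1.63. Antioxidant and redox genes had a median of 0.84 over 39 genes, with 28 above the median gene. Of the 39, 3 were higher (7.7%, against 3.27% of all genes) and 1 lower (2.6%, against 2.76% of all genes). The median was 0.51 without KO secondary replicate 1 and 1.73 without KO secondary replicate 2. Keap1, the sensor that restrains the antioxidant factor Nrf2, was measured on all 4 KO arrays, at -1.15 and -0.66 in primary and 2.16 and 3.75 in secondary recipients, a difference of 4.39 (SE 1.07, adjusted p = 0.697 in limma). Cat, which encodes catalase, was at least 6.71-fold higher, and Gclm, a subunit of the enzyme that starts glutathione synthesis, was at -3.25 and -3.43 against -0.70 and 1.67. Txnrd2, the mitochondrial thioredoxin reductase, was lower, at 4.11 and 3.42 against 1.74 and 1.44, and 0.77 by another probe.

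**Figure D2:**
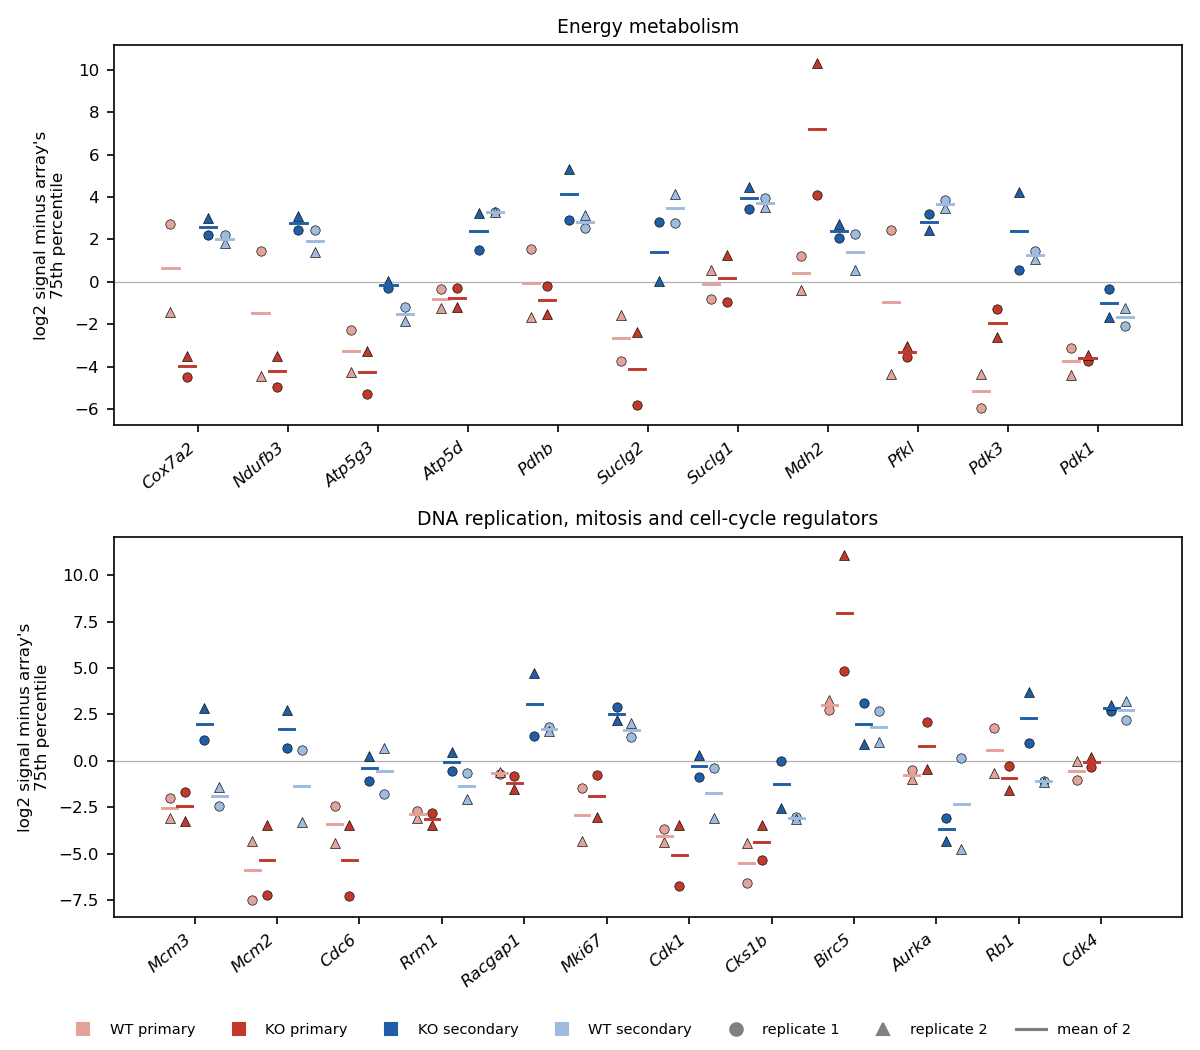
Levels of energy-metabolism genes (top) and of DNA replication, mitosis and cell-cycle genes (bottom) on each of the 8 arrays; the y axis is the log2 signal minus the 75th percentile of the array, circles and triangles are replicates 1 and 2, and lines are means of 2. Cox7a2 stands at -4.46 and -3.48 on the KO primary arrays and at 2.19 and 3.0 on the KO secondary arrays, whereas Birc5 stands at 4.84 and 11.11 on the primary and at 3.10 and 0.90 on the secondary arrays.

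Genes of DNA replication lay higher in part. Of 34 tested, 4 (11.8%, against 3.27% of all genes) were higher and 0 lower at an unadjusted p under 0.05, with 8 where both secondary arrays were above both primary arrays and 7 where both were below, against 12.7% and 28.4% of all genes. Mcm3, a subunit of the replicative helicase, was at -1.70 and -3.22 in primary and 1.11 and 2.83 in secondary recipients, a difference of 4.96 (SE 1.14, adjusted p = 0.697 in limma). Its partner Mcm2, at -7.22 and -3.45 against 0.67 and 2.75, was well above background on neither primary array and was at least 28.0-fold higher, and Cdc6, which loads that helicase, at least 6.47-fold. Rrm1, a subunit of ribonucleotide reductase, was at -2.82 and -3.46 against -0.57 and 0.47. The median of the list was 0.73, and it was 0.30 without KO primary replicate 2, -0.03 without KO secondary replicate 1 and 1.59 without KO secondary replicate 2.

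Mitosis genes were divided, with 4 higher (11.1%, against 3.27% of all genes) and 2 lower (5.6%, against 2.76%) of 36 tested and a median of 0.59. Mki67, the proliferation antigen Ki-67, was at -0.74 and -3.01 in primary and 2.87 and 2.17 in secondary recipients, and Racgap1, a cytokinesis regulator, at -0.84 and -1.51 against 1.36 and 4.72. Cdk1, the mitotic kinase, and its binding partner Cks1b were well above background on neither primary array and were at least 7.06-fold and 3.56-fold higher. Birc5, which encodes survivin of the chromosomal passenger complex, stood lower at 4.84 and 11.11 against 3.10 and 0.90, a difference of -5.45 that was -2.60 without KO primary replicate 2. The mitotic kinase gene Aurka was also lower, at 2.07 and -0.46 against -3.08 and -4.30. The list median turned to -0.22 without KO secondary replicate 1 and to -0.70 over the 17 genes well above background on all 8 arrays. Of those 17, 0 were higher and 3 lower at an unadjusted limma p under 0.05, against 1.1% and 6.3% of all genes so measured.

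Regulators of entry into the cycle gave few differences. Cdk4, the G1 kinase, was measured on all 4 KO arrays at -0.31 and 0.20 in primary and 2.70 and 3.02 in secondary recipients, a difference of 3.44 (SE 0.98, adjusted p = 0.716 in limma), and was the 1 gene of 19 G1 cyclins, CDKs and Myc with an unadjusted p under 0.05. Myc was at 2.75 and 7.26 against 1.99 and 3.34 by its brightest probe; the difference of -1.82 was 0.15 without KO primary replicate 2 and 2.80 as the mean of its probes. Of 9 CDK inhibitors and Rb family genes tested, Rb1, the retinoblastoma protein, was higher, at -0.27 and -1.58 against 0.94 and 3.69, although a second probe for it gave -1.14. Rbl2, its relative p130, was at -3.11 and -3.21 against 0.71 and -2.47. E47 is known to act on Cdkn1a, the inhibitor p21, named here for that reason: it was at -0.01 and -1.18 in primary and at -1.19 and -0.41 in secondary recipients, so that the groups overlapped.

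Interferon response genes had a median of 1.16 over 35 genes, of which 26 lay above the median gene, 3 were higher (8.6%, against 3.27% of all genes) and 1 lower (2.9%, against 2.76% of all genes) at an unadjusted p under 0.05. Over the 16 members well above background on all 8 arrays, 1 was higher and 1 lower, against 1.1% and 6.3% of all genes so measured. Gbp2, an interferon-induced GTPase, was at -4.63 and -3.47 in primary and 1.13 and 3.34 in secondary recipients, a difference of 6.81 (SE 1.14, adjusted p = 0.692 in limma). Ifi27 was at 0.46 and -1.35 against 2.85 and 2.87, a difference of 3.83 where a second probe gave -1.88. Ifit1, which binds foreign RNA, was at -5.81 and -1.95 against -0.53 and 2.68, at least 18.0-fold higher, whereas the transcription factor Irf1 was lower at 4.31 and 3.28 against 1.72 and -0.37. A second Irf1 probe, well above background on all 8 arrays, gave a difference of -0.1 where this one gave -2.6. Leaving out 1 KO array in turn gave medians from 0.50, without KO secondary replicate 1, to 1.71, without KO secondary replicate 2, and WT gave 1.94.

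Genes of mature lineages outside the neutrophils showed scattered differences. Of 17 megakaryocyte and platelet genes, 2 were higher at an unadjusted p under 0.05, against 3.27% of all genes, and 0 lower. The 2 higher genes were Selp and F2r. Selp, which encodes P-selectin, was at -2.13 and -1.60 in primary and 2.54 and 5.34 in secondary recipients (difference 6.33, SE 1.26, adjusted p = 0.692 in limma). F2r, the thrombin receptor, was at -2.17 and -3.33 against 1.31 and 1.82. Of 18 monocyte, macrophage and dendritic cell genes, 2 were higher (11.1%, against 3.27% of all genes) and 3 lower (16.7%, against 2.76%). Cd68, a lysosomal glycoprotein, was at -2.43 and -2.17 against 1.19 and 3.19. C1qa, a complement subunit, was at 2.85 and 1.63 against -2.24 and -0.76, and Cx3cr1, the fractalkine receptor, at -0.07 and 1.67 against -2.17 and -2.10. The MHC class II genes went apart, with H2-Eb1 at 1.45 and 0.78 against -1.54 and -1.80 and H2-Aa at 1.53 and 0.18 against 3.20 and 4.19; a second H2-Aa probe gave -6.57 where the first gave 3.36.

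Lymphoid, erythroid and mast cell lists held 0 genes with an unadjusted limma p under 0.05 in either direction: 17 B-lineage genes, 20 T and NK cell genes, 17 lymphoid priming genes, 23 erythroid and haem genes and 12 mast cell and basophil genes. Their medians were -0.30, -0.69, -0.17, -0.41 and 0.18. Pax5, the factor that commits cells to the B lineage, was at 0.64 and 1.57 in primary and -0.68 and -0.70 in secondary recipients. Rag1, a subunit of the recombinase of lymphocyte receptors, was at 2.70 and -2.68 against -3.31 and -3.77, and Ly6d, a marker of B-primed lymphoid progenitors, at 1.80 and 5.75 against 0.44 and 0.90. Cd5 was at 0.55 and 2.92 against -1.10 and -0.60, and the thymocyte gene Themis at -4.07 and -0.80 against -5.55 and -5.97. Summed signals of the B-lineage list were 29.5 and 49.1 on the primary and 14.6 and 20.5 on the secondary arrays, and those of the T and NK list 40.7 and 2039 against 23.5 and 38.8; their part in the other differences was not tested. In the erythroid list Gata1, the main transcription factor of red cells, was at -0.41 and 2.52 against -2.00 and -1.25 and Slc4a1, the anion exchanger band 3, at 2.47 and 1.32 against -0.25 and 0.52. Of the mast cell genes, chymase Cma1 was at 1.16 and 0.54 against 0.01 and -1.15 and tryptase Tpsab1 at -2.15 and -3.48 against -3.73 and -4.97. Bank1, a B-cell adaptor, stood at 2.66 and -3.40 against -3.59 and -4.34, so that 1 primary array alone was high.

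Smaller regulatory lists gave single genes. Among 20 p53 and damage-response genes, Ddb2, a DNA damage sensor, was at least 19.7-fold higher, and Gadd45b was at 0.47 and 3.93 in primary and -1.23 and -0.38 in secondary recipients. The 12 Bcl2 family genes had 0 in either direction; Bcl2 itself was at 4.92 and 5.49 against 3.44 and 3.81 and Bcl2l2, another survival member, at -3.13 and -3.50 against -2.71 and 1.48. Immediate early genes had a median of -0.64 over 20 genes, with Zfp36, which destabilises mRNA, higher at -2.65 and -0.88 against 0.47 and 1.15, and Fosb at -0.39 and 4.26 against -1.54 and -1.32. Of 15 imprinted genes linked to HSC quiescence, Gnas was higher and Dlk1 and Sgce lower. At the same unadjusted p under 0.05, 3.27% of all genes were higher and 2.76% lower. Dlk1, a Notch-like membrane protein, was at 1.84 and 0.81 against -3.11 and -2.15, a difference of -3.43 by this probe and -0.58 by another. Sgce was at 2.96 and 8.01 against -0.24 and 0.50, a difference of -4.83 by this probe and 5.60 by another. Gnas, the stimulatory G-protein subunit, was at -3.06 and -2.69 against 0.82 and 2.71, but its probes ranged in difference from -2.22 to 5.17. The 19 Hox genes had 0 in either direction and a median of 0.26 that changed sign without KO primary replicate 2, at -0.09; Hoxb2 was at -3.44 and -2.35 against -0.80 and 1.17, and Hoxb6 at 4.41 and 7.0 against 3.03 and 3.74 by 1 of its probes, with 2.96 by another.

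Cytosolic ribosomal protein genes showed how far 1 array could set a list. Over 77 genes the median difference was -1.31, with 0 higher and 0 lower at an unadjusted p under 0.05. The median level of the list was 4.76 on KO primary replicate 1 and 9.45 on replicate 2, against 5.40 on both KO secondary arrays. Without KO primary replicate 2 the median was 0.67, and under quantile normalization it was 1.11, with 69 of 77 genes above the median gene. Rpl5, a protein of the large subunit, was at 3.35 and -3.26 in primary and 5.59 and 5.78 in secondary recipients, and Rpl27a at -0.61 and -2.19 against 1.0 and 2.27. The Rpl27a difference was 3.56 by this probe and -0.18 by another.

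**Figure D3:**
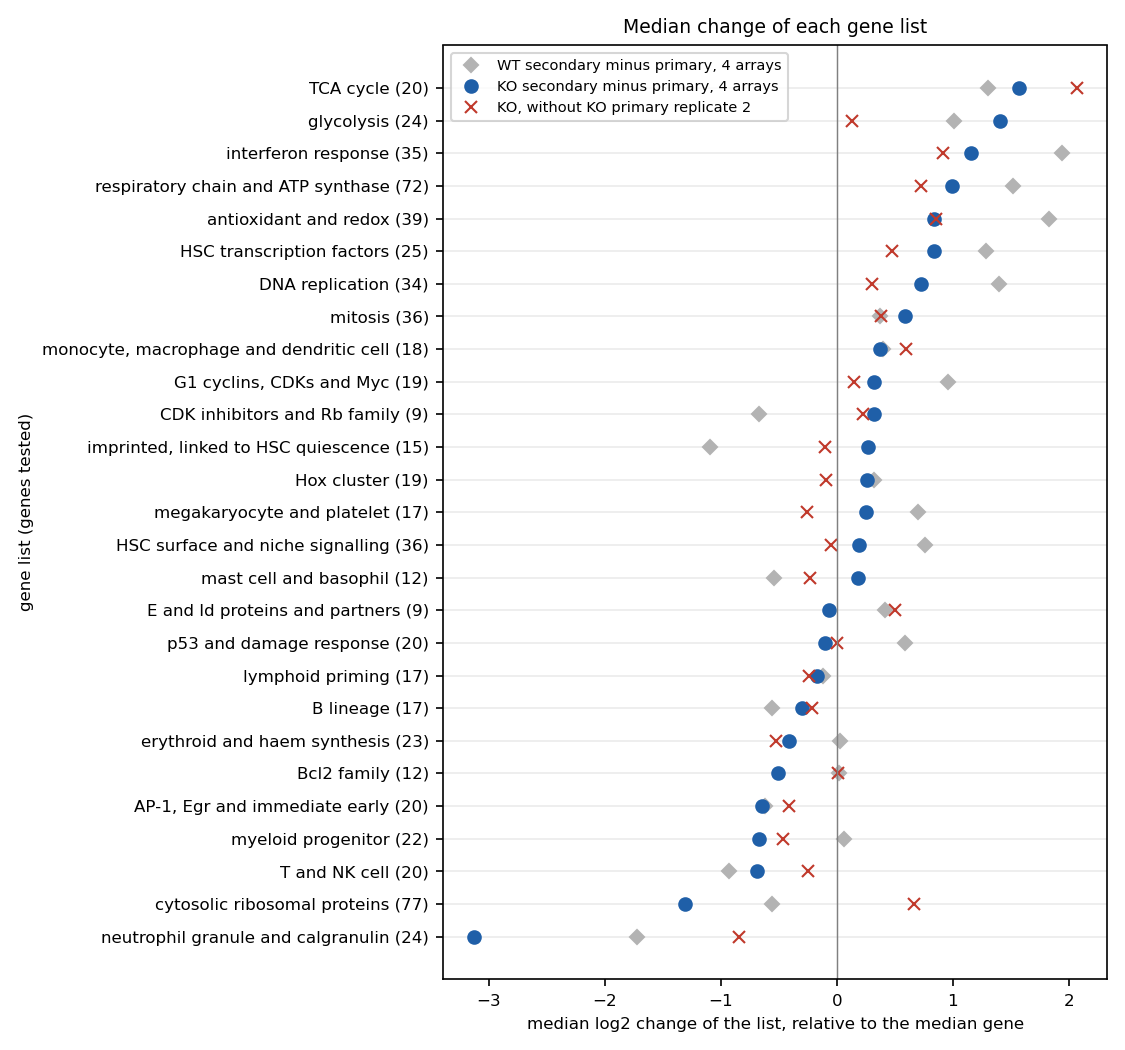
Median difference of each gene list between secondary and primary recipients in log2 units relative to the median gene (x axis), with the number of genes tested in parentheses: KO on 4 arrays (circles), KO without the dim KO primary replicate 2 (crosses) and WT on 4 arrays (diamonds). The neutrophil list stands at -3.13 in KO and at -0.84 without that array, and the TCA cycle list at 1.57 and 2.07.

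The same comparison in WT HSC was set beside these values because its 4 arrays shared a slide. In WT, 0 genes (0.0%) had an adjusted p under 0.05; at an unadjusted p under 0.05, 1250 (5.44%) were higher and 1512 (6.58%) lower, both secondary arrays lay above both primary arrays on 3506 genes (15.3%) and below on 9207 (40.1%). Of the 752 genes higher in KO, 656 (87.2%) also lay above the median gene in WT, and of the 634 lower, 388 (61.2%) lay below it. Over all genes 61.2% were on the same side in both. The correlation of the KO and WT differences across 22969 genes was 0.29, with and without the dim array of each genotype; genes are not independent replicates, and each genotype had a dim primary replicate 2.

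**Figure D4:**
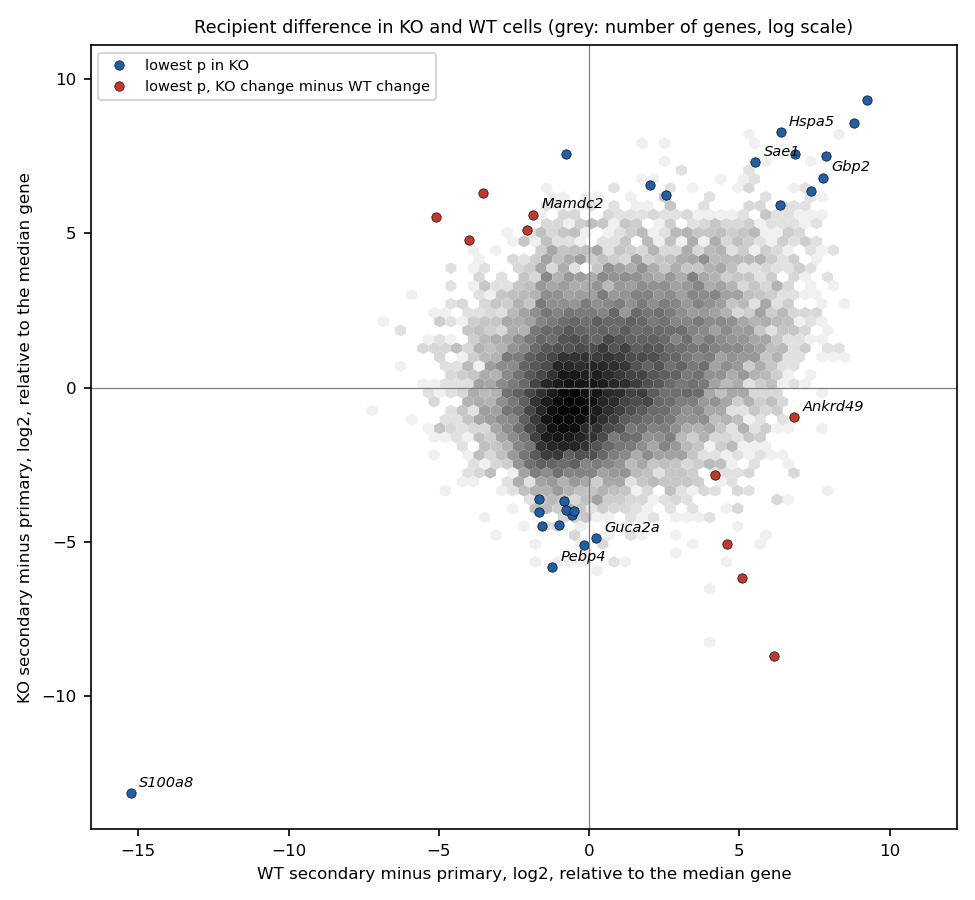
Difference between secondary and primary recipients of each gene in WT (x axis) and KO (y axis), in log2 units relative to the median gene; grey shading is the number of genes on a log scale, and coloured points are the genes of lowest p in KO and in the difference between the genotypes. Wdr1 lies at 5.08 in WT and -6.16 in KO, and Guca2a at 0.21 in WT and -4.88 in KO; points such as S100a8 and Ankrd49 in WT rest on arrays where the gene was not well above background.

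Whether the difference between recipients depended on the genotype was tested by the KO difference minus the WT difference. The KO recipients lay on separate slides with separate scan dates, and the WT arrays did not. Dependence on genotype therefore cannot be told apart from slide and scan date in this test. In limma, 0 genes (0.0%) had an adjusted p under 0.05, and the lowest adjusted p was 1; at an unadjusted p under 0.05, 459 (2.0%) had a higher and 399 (1.74%) a lower difference in KO. Of the 5 genes of lowest p with a higher difference in KO, Arhgef39 was at -3.22 and -2.59 in KO primary and 1.78 and 4.01 in KO secondary recipients, and at 0.30 and -2.15 against -5.16 and -5.75 in WT. Mamdc2 was at -3.80 and -3.40 against 1.25 and 1.72 in KO and at -1.15 and -1.71 against -3.77 and -4.82 in WT. Bcdin3d, an RNA methyltransferase, Slc25a16, a mitochondrial carrier, and the homeobox gene Rhox2a were the others, with KO differences of 5.51, 4.78 and 5.10. In WT the difference was -5.09 for Bcdin3d and -2.08 for Rhox2a. Slc25a16 was at -2.40 and -4.33 in WT primary and at -8.6 and -8.1 in WT secondary recipients. Of these WT arrays only primary replicate 1 was well above background for it, so no bound is given. On the lower side, Map1lc3b, which encodes the autophagosome protein LC3B, was at 5.50 and 9.39 against 2.48 and 1.22 in KO and at 0.38 and -1.03 against 3.58 and 2.95 in WT. A second Map1lc3b probe, well above background on all 8 arrays, gave 1.06 in KO where this one gave -5.07. Wdr1, a cofactor of actin disassembly, was at 3.76 and 9.14 against 0.39 and -0.86 in KO and at -1.19 and -1.49 against 2.80 and 2.69 in WT. The remaining 3 were Ankrd49, Dph5, an enzyme of diphthamide synthesis, and Sfswap, a splicing regulator, with KO differences of -0.96, -8.69 and -2.84. In WT the difference was 6.15 for Dph5 and 4.18 for Sfswap, and Ankrd49, well above background on neither WT primary array, was at least 25.0-fold higher. Another Sfswap probe gave 4.69 in KO. All 10 had an adjusted p of 1.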

How the data were processed

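Per the file headers, spot intensities were read with Agilent Feature Extraction 10.5.1.1, and the deposited scanner files give a background-subtracted processed intensity for each spot. The deposited series table holds a ratio of that signal to the median of its own array and was used only as an alternative. Control spots and outlier spots were left out, spots of a probe were averaged, and log2 intensity minus the 75th percentile of the array was used for 41048 probes with a value on every array. A gene was kept if, in 1 group or more, both arrays marked a probe of it as well above background, and was read by its brightest probe. Genes were named through RefSeq accessions and symbols.

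All 8 arrays entered 1 limma fit of 4 groups (limma 3.58.1, R 4.3.3, lmFit and eBayes, 4 residual degrees of freedom), with Benjamini-Hochberg adjustment over all 22969 genes; the script was tested on simulated data. No slide term was possible within KO. Per direction, the 12 genes of lowest p were named, 5 for the difference between genotypes, up to 4 for each list, and at least 2 a list. The 27 lists, of 691 tested entries, and the genes named were chosen with earlier results of these data known. The alternatives were other background correction, normalization, filters, probe rules and models, the series table, and leaving out arrays. A few genes that the naming rule or the marker check selected are not reported here.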

Additional observations from a re-analysis of the deposited data

How the results depend on the processing

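In each of the 20 alternatives, 0 genes had an adjusted p under 0.05 in limma for KO. The same held for WT and for the difference between them, which the fit of the KO arrays alone did not test. The lowest adjusted p in limma over the alternatives was 0.0973 for KO and 0.127 for the difference between genotypes. Counts at an unadjusted p under 0.05 moved by more than 1.5 times under some. Against 752 higher KO genes there were 465 with normexp background correction, 1194 with quantile normalization, 116 (1.1% of 10163 tested) over genes well above background on all arrays, and 1276 with both dim arrays left out. Against 634 lower genes there were 1115 with normexp correction, 637 (6.3%) over genes well above background on all arrays, and 366 with the KO arrays alone, which gave 893 higher genes. Leaving out 1 array at a time gave 511 to 1053 higher genes and 170 to 2607 lower genes, the extremes of the latter without KO secondary replicate 2 and without KO primary replicate 1; the lone array of a group was then assumed to vary like the others. The cause was not tested.

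Same-numbered arrays did not deviate together, with correlations of deviations from -0.026 to 0.15 between groups, so the numbers were not taken as pairs. A fit with the replicate block gave 831 higher and 675 lower genes at an unadjusted p under 0.05, and 0 with an adjusted p under 0.05.

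Of 2001 values of the 103 named genes under alternatives, 12 changed sign, in 8 genes. Many alternatives could not move a KO difference relative to the median gene. These were leaving out a WT array, the KO arrays alone, array weights, the replicate block, centring each array and the series table. Leaving out both dim arrays repeated the KO values without KO primary replicate 2. The 2001 values therefore overstate how often the signs were tested. As the mean of all probes, Hoxb6 was at 0.55, H2-Aa at -1.63, Myc at 2.80, Sgce at 0.35 and Tcf3 at -0.94. Tpsab1 was at 0.27 with quantile normalization and Bcl2 at 0.05 with normexp correction. Myc was at 0.15 with both dim arrays left out. Without 1 array, Bank1 ranged from -6.39 to 0.10, Myc from -3.93 to 0.15, and Tcf3 from -1.72 to 2.31. Dim signal limited the comparison, as did the arrays' number: on KO primary replicate 2 only 35.4% of spots were well above background.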
